A study of Rattus norvegicus with 3 samples.

Results

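This section describes 9 genes of the interferon response in the rat vestibular nuclei, brainstem neurons that take in and relay inner ear balance input, without and after loss of the labyrinth (the balance organ) on 1 side. The genes are the receptor chain Ifngr1, the signalling proteins Stat2 and Irf9, the transcription factors Irf1 and Irf7, the antiviral proteins Ifit2, Rsad2 and Mx1, and the RNA-editing enzyme Adar. They were taken by name, and every probe whose RefSeq accession belongs to one of them was used, which gave 11 probes for 9 of the 8899 genes that could be named on the array. Ifit2 and Rsad2 had 2 probes each and the other genes 1, and each of these probes was printed as 1 spot.

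RNA was measured on 3 Agilent rat arrays in 1 colour (Cy3). The groups were a control labelled as sham-operated, the nuclei of the operated side 1 day after left labyrinthectomy, and the same nuclei 7 days after it, with 1 array each. Male adult rats of the Sprague-Dawley strain (200 to 250 g) were used. Per the labels, nuclei from 3 rats went into a group because 1 nucleus yields too little RNA, so an array seems to hold a pool of 3 animals. Below, the control is called sham, although the labels' protocols call the control animals normal and describe the labyrinth surgery in the entry of the control as well. No transgene is named for any group, and the sources used here do not say which side was dissected in controls.

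Interferons are secreted proteins that infected or stressed cells and immune cells release to warn their neighbours. Type I interferons signal through a complex that includes STAT2 and IRF9 and binds interferon-stimulated response elements, while interferon gamma acts through gamma-activated sites. In the brain, microglia, astrocytes and neurons can all respond, and glial interferon responses have been described after nerve injury.

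With 1 array per group there is no replicate and no test of conditions, so no p-value is given and every value below is a difference between 2 arrays. A level is log2 of the background-subtracted intensity minus the 75th percentile of the same array, so a level of 0 is a bright spot at that percentile. A gene was measured in a comparison when its brighter probe exceeded background clearly and stayed below saturation on both arrays, and it was counted when the difference reached 2-fold (1 on the log2 scale). Across all genes, 8.26% of 6292 measured genes passed 2-fold upward and 4.37% downward between day 1 and sham. Between day 7 and sham, 11.1% of 6261 were higher and 5.73% lower. Between day 7 and day 1, 6.56% of 6142 were higher and 5.32% lower. The share of higher genes among those past 2-fold depended on the scaling. It was 65.4% at day 1 against sham and 53.0% after another background correction of the median signal followed by quantile normalization (called normexp here), and 66.0% and 51.9% for day 7 against sham. For day 7 against day 1 it was 55.2%, but 65.9% in the authors' unscaled table. In that table the median of all genes lay at -0.12 for day 1 against sham and at 0.15 for day 7 against day 1. The error given after a fold is the scanner software's own estimate for both spots and covers neither animals nor dissection nor labelling. Where genes had 2 measured probes, their folds differed by a median of 0.34 (day 1 against sham), 0.41 (day 7 against sham) and 0.37 (day 7 against day 1) on the log2 scale, and smaller differences are within the spread between probes. Of 89 such genes past 2-fold at day 7 against sham by the brighter probe, 26 were past it in the same direction by the other probe. The lowest signal well above background was 66.9 (sham), 109.0 (day 1) and 121.6 (day 7) intensity units, so dim genes were harder to detect on both arrays after surgery. A gene whose sham level lay below the limit of a later array could be measured there only if it was higher.

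**Figure D1:**
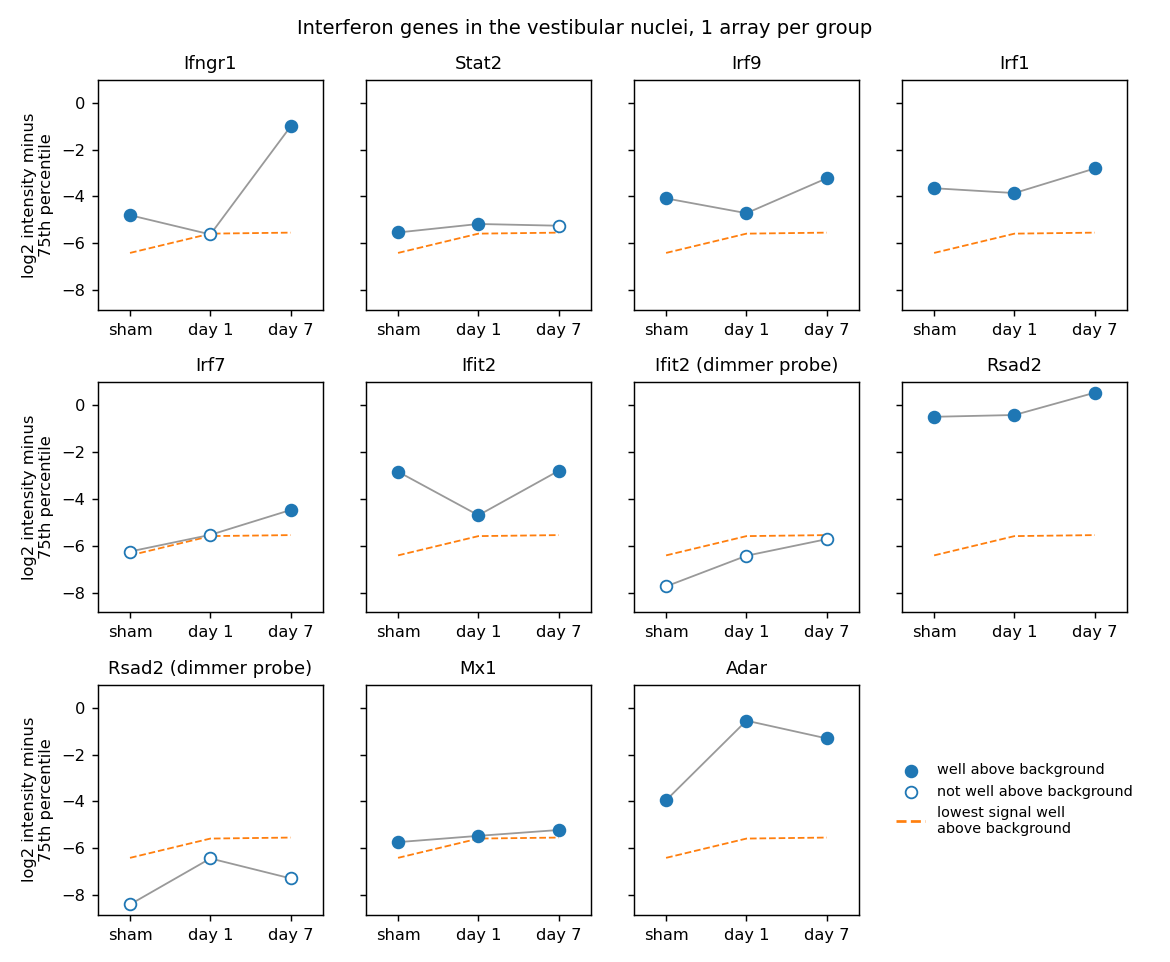
The level of each probe (log2 intensity minus the array's 75th percentile) on the sham, day 1 and day 7 arrays, 1 spot per point, with filled points well above background and open points not. Ifngr1 is highest at day 7 (-1.004), Ifit2 dips at day 1 (-4.70), Adar is lowest in sham (-3.95), and the dimmer probes of Ifit2 and Rsad2 are not well above background on any of the 3 arrays.

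On the day 7 array the measured interferon genes lay above sham (Ifit2 by 0.04 and not under every scaling), and on the day 1 array they were mixed. Under the main scaling the upward sign of Mx1 was fixed by the filter, and the medians below include it. Its sham level (-5.74) lay below the lowest level well above background at day 1 (-5.59) and day 7 (-5.55). At day 7 against sham, 3 of the 7 measured genes were at least 2-fold higher (Ifngr1, Adar and Rsad2), none was 2-fold lower, and the median log2 fold was 0.86, beside 0.05 over all measured genes and the 11.1% of all genes that were higher. For day 1 against sham, 1 of 7 was higher (Adar) and 1 lower (Ifit2), with a median of 0.08, beside 0.00 over all genes, of which 8.26% were higher and 4.37% lower. Between day 7 and day 1, 3 of 6 were higher (Ifit2, Irf9 and Irf1), none was lower, and the median was 1.00, beside 0.04 over all genes and the 6.56% that were higher. These 3 sets of differences share arrays, so they are not independent of each other. The measured genes are not all 9, because Irf7 was well above background only at day 7, Ifngr1 was not at day 1, and Stat2 was not at day 7. Microglia and macrophage markers were also mostly higher at day 7 than at day 1 (7 of 8 measured above 0, median 0.90, beside 3295 of all 6142 genes above 0). In dissected tissue more cells of a type and more RNA per cell cannot be told apart. In the dimmer part of all genes 22.7% were past 2-fold at day 7 against sham, with 16.4% upward and 6.29% downward. For the brighter part this was 11.1%, with 5.88% upward and 5.18% downward. The excess among dim genes was thus mostly upward.

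The receptor chain Ifngr1, which binds interferon gamma, had levels of -4.80 in sham, -5.62 at day 1 and -1.004 at day 7. The day 7 array was far above the other 2, and the day 1 spot was not well above background. In intensity units the spot gave 204.3 (sham), 106.5 (day 1) and 2830 (day 7). Ifngr1 was 13.9-fold higher at day 7 than in sham (log2 3.80, scanner error 0.23, and 3.20 under normexp), and 99.9% of measured genes had a lower fold. Against day 1 it was at least 23.98-fold higher at day 7. This bound sets the day 7 value against the lowest signal well above background on the day 1 array, 109.0 intensity units. It is approximate, since Irf7 read 113.1 at day 1 and was not well above background. At day 1 Ifngr1 was at least 1.73-fold lower than in sham. The value rests on 1 spot of 1 probe. The partner chain Ifngr2 and the type I receptor chains Ifnar1 and Ifnar2 had no named probe here, so Ifngr1 stood alone among 6 listed receptor genes.

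Of 11 listed ligand genes 3 had a named probe. Ifng, the ligand of Ifngr1, was not well above background on any array, at 17.6 (sham), 24.02 (day 1) and 26.2 (day 7) intensity units. Ifnb1, a type I interferon, was well above background on all 3 and within 2-fold, with log2 folds of 0.27 at day 1 and 0.25 at day 7 against sham. Ifna5, a further type I interferon, was not well above background in sham and was at least 2.83-fold higher at day 1 and at least 2.81-fold higher at day 7. Its signals were dim, at 57.0 (sham), 174.6 (day 1) and 187.5 (day 7) intensity units.

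Of the signal transducers, Stat2 carries the type I signal to the nucleus. Its levels were -5.54 in sham, -5.18 at day 1 and -5.25 at day 7, with the day 7 spot not well above background. The log2 fold at day 1 against sham was 0.36, less than its scanner error of 0.40. The sign of that difference turned to -0.21 under normexp. Irf9, the DNA-binding partner of STAT2, had levels of -4.08 in sham, -4.72 at day 1 and -3.22 at day 7, so it was lowest at day 1 and highest at day 7. The log2 folds were -0.63 ± 0.27 (scanner error) at day 1 and 0.86 ± 0.22 at day 7 against sham, neither past 2-fold. It was 2.81-fold higher at day 7 than at day 1 (log2 1.49 ± 0.27). Among 5 transducer genes with a probe, Jak2, the kinase bound to the interferon gamma receptor, was past 2-fold at day 7 against sham (log2 1.25).

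**Figure D2:**
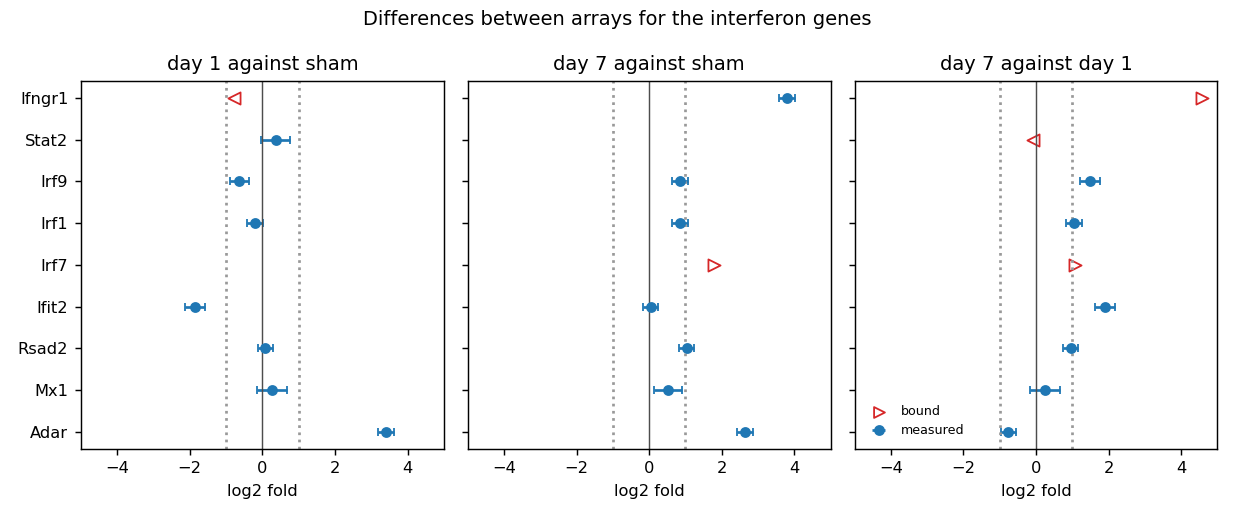
Log2 folds of the 9 genes in the 3 comparisons, from 1 array per group. Blue points are genes well above background on both arrays with bars for the scanner's error, and dotted lines mark 2-fold. Open red triangles are bounds that point in the direction of the difference. For Irf7 and Stat2 they are ratios to a reading not well above background. At day 7 against day 1 Ifit2 (1.90), Irf9 (1.49) and Irf1 (1.05) lie to the right of the line, and Adar (-0.76) is left of 0.

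The transcription factor Irf1, which interferon gamma induces and which activates antigen presentation and antiviral genes, had levels of -3.65 in sham, -3.86 at day 1 and -2.81 at day 7. Sham and day 1 differed by less than the scanner error (log2 fold -0.21 ± 0.23), and day 7 was above both. The day 7 array exceeded sham by a log2 fold of 0.84 ± 0.21 and day 1 by 1.05 ± 0.23, and the second was 0.86 under normexp. Irf7, the factor that amplifies type I interferon production, had levels of -6.25 in sham, -5.53 at day 1 and -4.47 at day 7. It was well above background only at day 7, where its intensity was 255.9, against 75.02 in sham and 113.1 at day 1. By the scaled levels Irf7 was 3.42-fold higher at day 7 than in sham and 2.09-fold higher than at day 1. These are ratios to readings not well above background (scanner errors of 23.8% in sham and 23.5% at day 1), not lower limits. Irf2 and Irf3, the other IRF genes with a named probe, were within 2-fold in all 3 comparisons. Irf3, which is present before any interferon signal, had log2 folds of 0.14 at day 1 and 0.31 at day 7 against sham.

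The antiviral protein Ifit2, which binds viral RNA and is strongly induced by interferon, had levels of -2.84 in sham, -4.70 at day 1 and -2.80 at day 7 by its brighter probe. Sham and day 7 were alike within the scanner error, and day 1 stood below both. At day 1 it was 3.63-fold lower than in sham (log2 -1.86 ± 0.27), and at day 7 it was 3.74-fold higher than at day 1 (log2 1.90 ± 0.28). The log2 fold at day 7 against sham was 0.04 ± 0.21, and its sign changed between scalings (-0.11 under cyclic loess). The second Ifit2 probe was not well above background on any array, at 26.7 (sham), 61.0 (day 1) and 107.9 (day 7) intensity units, and gave no fold.

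Rsad2 encodes viperin, an enzyme that blocks viral replication. By its brighter probe the levels were -0.50 in sham, -0.42 at day 1 and 0.53 at day 7, so day 7 stood above the other 2. The log2 folds were 0.08 ± 0.20 at day 1 and 1.03 ± 0.20 at day 7 against sham. Against day 1 the day 7 value was 0.95 ± 0.20. The difference at day 7 against sham lay at the 2-fold line and was 0.90 when scaled by the array median and 0.94 under normexp. The second Rsad2 probe, at 16.9 (sham), 60.5 (day 1) and 36.3 (day 7) intensity units, was not well above background on any array. Mx1, a GTPase that traps viral particles, was dim, with levels of -5.74 in sham, -5.47 at day 1 and -5.22 at day 7. Its log2 folds of 0.27 ± 0.41 at day 1 and 0.52 ± 0.39 at day 7 against sham were both within 2-fold, and the first was below its scanner error and turned to -0.03 under cyclic loess. Under the main scaling both could only be upward, because Mx1 in sham lay below the detection limit of the later arrays.

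Adar edits adenosine to inosine in double-stranded RNA, and 1 of its forms is interferon-induced. Its levels were -3.95 in sham, -0.56 at day 1 and -1.31 at day 7. Both arrays after surgery were high and sham was low, with intensities of 367.3 (sham), 3567 (day 1) and 2282 (day 7). Adar was 10.5-fold higher at day 1 (log2 3.40 ± 0.22) and 6.23-fold higher at day 7 (log2 2.64 ± 0.22) than in sham, and between the days it was within 2-fold (-0.76 ± 0.21). A lower fold was found for 99.9% of measured genes at day 1 and for 99.4% at day 7. The gene had a single probe, and which of its forms the probe detects was not checked.

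**Figure D3:**
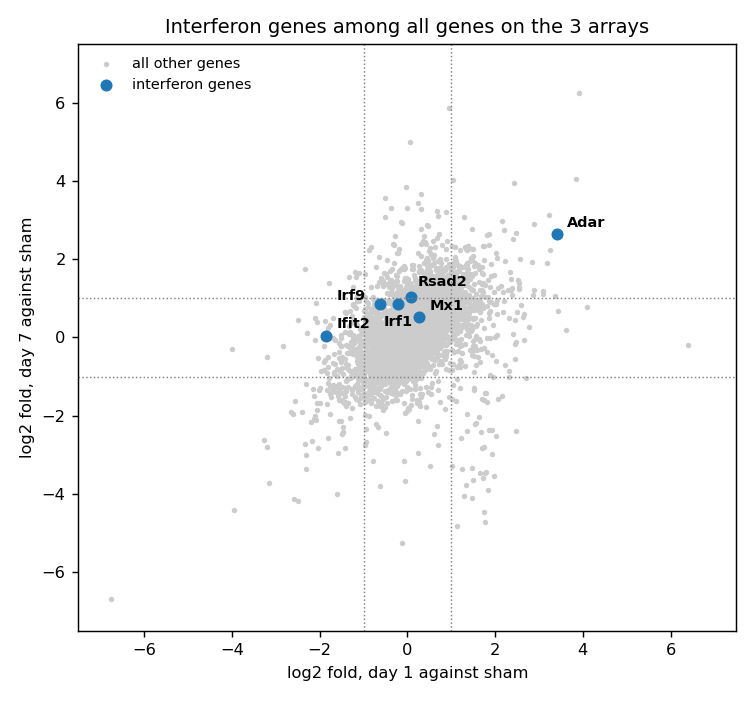
Log2 folds at day 1 (horizontal) and day 7 (vertical) against the same sham array for 6047 genes measured on all 3 arrays, with the 6 interferon genes among them in blue and dotted lines at 2-fold. Adar (3.40, 2.64) lies at the upper right edge, Ifit2 (-1.86, 0.04) at the left edge, and the other 4 lie within the cloud. The shared sham array makes the 2 axes depend on each other.

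Promoters (250 bases before to 50 after each annotated start, RefSeq, build GRCr8) were at hand for 7 of the 9 genes, all but Ifit2 and Adar. They were searched on both strands for the core of the interferon-stimulated response element, GAAANNGAAA (TTTCNNTTTC on the other strand), and for the gamma-activated site TTCNNNGAA, which reads alike on both strands. The 2 motifs overlapped in none of the promoters shown. Of all 33469 promoters of the table, 3.92% held the first and 8.87% the second. Among the 7 genes, Irf7 and Rsad2 held the first and Irf1 and Irf9 the second, and these 4 promoters are shown because they hold a motif. The genes' highest level was at day 7, as it also was for Ifngr1 and Mx1, which hold neither motif. Capitals mark the motif. The Irf7 promoter lies at chr1:205799974-205800273 (minus strand) with the motif at -69 to -60 from the start, and that of Rsad2 at chr6:48788071-48788370 (minus strand) with the motif at -147 to -138. The Irf1 promoter lies at chr10:38417685-38417984 (plus strand) with the motif at -142 to -134, and that of Irf9 at chr15:33065586-33065885 (plus strand) with the motif at -99 to -91.
Irf7 promoter: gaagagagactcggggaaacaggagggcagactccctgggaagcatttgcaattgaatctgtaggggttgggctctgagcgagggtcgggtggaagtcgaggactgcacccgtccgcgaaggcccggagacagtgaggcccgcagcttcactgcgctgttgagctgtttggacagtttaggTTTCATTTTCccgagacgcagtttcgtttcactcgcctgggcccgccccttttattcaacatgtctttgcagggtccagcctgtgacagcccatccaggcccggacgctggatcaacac
Rsad2 promoter: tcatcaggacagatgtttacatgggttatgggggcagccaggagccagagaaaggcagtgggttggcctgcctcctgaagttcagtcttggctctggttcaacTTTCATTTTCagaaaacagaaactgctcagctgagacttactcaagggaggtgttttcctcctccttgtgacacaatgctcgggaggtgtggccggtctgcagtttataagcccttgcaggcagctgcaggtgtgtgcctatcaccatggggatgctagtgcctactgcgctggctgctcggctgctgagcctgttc
Irf1 promoter: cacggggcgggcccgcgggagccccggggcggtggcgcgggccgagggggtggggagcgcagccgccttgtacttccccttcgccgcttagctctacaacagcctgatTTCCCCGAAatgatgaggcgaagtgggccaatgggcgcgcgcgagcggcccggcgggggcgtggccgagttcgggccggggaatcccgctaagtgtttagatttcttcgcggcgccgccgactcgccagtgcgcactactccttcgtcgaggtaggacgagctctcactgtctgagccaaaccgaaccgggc
Irf9 promoter: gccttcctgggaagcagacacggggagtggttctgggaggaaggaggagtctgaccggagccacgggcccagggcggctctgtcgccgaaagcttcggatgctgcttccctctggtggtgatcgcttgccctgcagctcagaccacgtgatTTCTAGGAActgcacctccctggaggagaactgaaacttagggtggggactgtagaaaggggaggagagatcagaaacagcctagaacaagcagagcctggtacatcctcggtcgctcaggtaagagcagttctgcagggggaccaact

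Stat2, Ifngr1 and Mx1 held neither set of letters in this window. A match is a run of letters and was not tested as a binding site. In the wider lists of interferon genes, the first motif was in 21 of 32 promoters of antiviral effectors (65.6%) and in 14 of 23 of interferon gamma induced genes (60.9%). It was in none of the 6 promoters of interferon receptors and in none of the 4 of JAK-STAT transducers.

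The other genes of the pathway were listed by role (ligands, receptors, transducers, IRF factors, nucleic acid sensors, antiviral effectors, interferon gamma induced genes and inhibitors). Of 123 such genes, 61 had a named probe. For day 1 against sham none of the 42 measured was at least 2-fold higher, 2 were lower and the median was 0.03, beside 8.26% higher and 4.37% lower among all genes. Between day 7 and sham 9 of 45 were higher, 1 was lower, and the median was 0.16, beside 11.1% and 5.73% of all genes. In the dimmer part of all genes 16.4% were higher. The higher genes include Ifi47 and Cxcl9, whose sham levels lay below the detection limit of the day 7 array. Between day 7 and day 1, 3 of 44 were higher, 1 was lower, and the median was 0.35, beside 6.56% higher and 5.32% lower among all genes, while 32 of the 44 lay above 0, as did 3295 of all 6142 measured genes.

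Among antiviral effectors 17 were measured in each comparison, the 5 that were higher at day 7 than in sham including Adar and Rsad2, beside 11.1% of all genes. The only listed effector beside Ifit2 that was 2-fold lower at day 1 than in sham was Oas1a (log2 -1.08), a sensor of double-stranded RNA. Oasl2, of the same enzyme family, was at -0.82 at day 1 and 1.30 at day 7 against sham, and the day 7 array exceeded day 1 by 2.12. The nuclease Isg20 was at 1.29 at day 7 against sham. The ubiquitin ligase Trim25, named after its value was seen, was at 1.06 there and at 0.93 under quantile normalization. Bst2, which tethers viruses to the cell surface and was chosen after its values were seen, was at 0.75 and 0.63 by 2 probes in the same comparison. Ifi27l2b was lower at day 7 than at day 1 (-1.22). Ifit1, Ifit3 and Mx2, close relatives of genes described above and likewise chosen afterwards, were not well above background on any array.

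Genes known to follow interferon gamma were mostly within 2-fold. For day 1 against sham 1 of 14 measured was lower and 0 were higher, beside 4.37% and 8.26% of all genes. The lower gene was the immunoproteasome subunit Psmb9 (-1.04, or -0.79 under normexp), with a dim day 1 signal of 115.7 intensity units. At day 7 against day 1 Psmb9 was higher (1.16, or 0.72 under normexp). Of 16 measured, 3 were higher at day 7 than in sham and 1 was lower, beside 11.1% and 5.73% of all genes. For the dimmer part of all genes these shares were 16.4% and 6.29%. Higher were the GTPases Ifi47 (1.17) and Irgm (1.07) and the chemokine Cxcl9 (1.13), and the tRNA synthetase Wars1 was lower (-1.12). The first 3 were dim and were short of 2-fold under quantile normalization, at 0.99, 0.88 and 0.95. Under normexp they were at 0.52, 0.74 and 0.53. In sham Ifi47 (-5.85) and Cxcl9 (-6.00) lay below the lowest level well above background at day 7 (-5.55). They could thus be measured in this comparison only if they were higher at day 7. The peptide transporter Tap1 was 2.46-fold higher at day 7 than in sham, a ratio to a sham reading not well above background. In the nucleic acid sensing list, Tlr9, a receptor for DNA, was at 1.20 at day 7 against sham and 1.05 against day 1. Both were below 2-fold under normexp (0.77 and 0.71). The other gene of that list past 2-fold was Adar, which is an RNA-editing enzyme. Of the inhibitors, Socs3 was higher at day 7 (1.48 against sham, 0.85 under normexp, and at least 3.76-fold against day 1), and Socs2 was at least 2.27-fold lower at day 1 and at least 2.20-fold lower at day 7 than in sham.

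**Figure D4:**
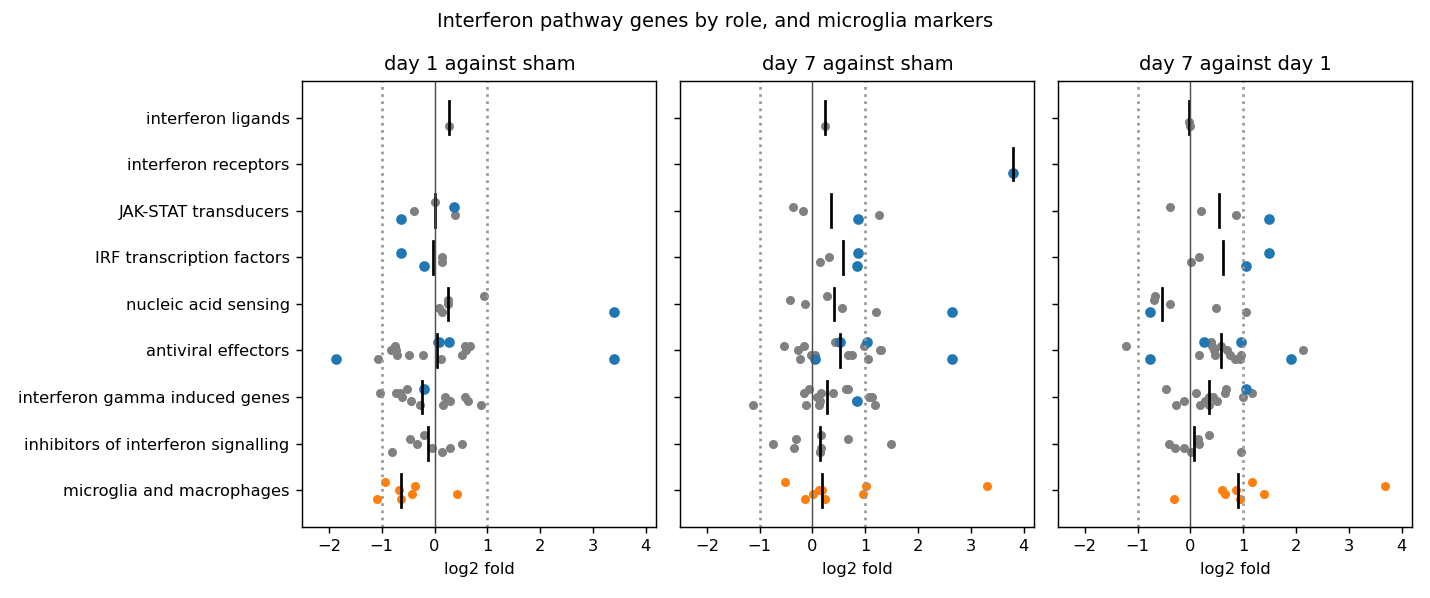
Log2 folds of listed interferon genes by role, with the 9 genes in blue, other listed genes in grey and microglia and macrophage markers in orange. Black bars are medians of the measured genes of a list, and dotted lines mark 2-fold. At day 7 against day 1 the medians of IRF factors (0.61), antiviral effectors (0.58) and microglia markers (0.90) lie right of 0, and those of nucleic acid sensing (-0.53) and ligands (-0.02) left of it.

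Microglia and macrophage markers were lower at day 1 and higher at day 7 in most cases. Between day 1 and sham 6 of 7 measured markers were below 0 (median -0.64), beside 3139 of all 6292 measured genes. Among them C1qc was at -0.37, but at 0.51 by its other probe. Cx3cr1 had a bound the other way (at least 3.78-fold higher). At day 7 against day 1, 7 of 8 were above 0 (median 0.90), beside 3295 of all 6142 genes. Past 2-fold were C1qc (3.68, but 0.52 by its other probe), C1qa (1.39) and Csf1r (1.16), beside 6.56% of all genes. Between day 7 and sham 7 of 9 were above 0, with a median of 0.18, beside 3337 of all 6261 genes. Of 16 listed markers 11 had a named probe, and the summed level of the 10 with a value on all 3 arrays was 10.3 (sham), 7.22 (day 1) and 13.8 (day 7) times the 75th percentile. Cx3cr1 was not well above background in sham, Cd68 and Itgam were not at day 1, and Itgam was not at day 7. Their part in the interferon values was not tested. Of 13 T and NK cell markers 11 had a probe, with summed levels of 0.65 (sham), 1.41 (day 1) and 0.63 (day 7). Without Nkg7, the brightest of them, the sums were 0.26 (sham), 0.24 (day 1) and 0.36 (day 7). At day 1, 8 of the 11 were not well above background. Cd2, Cd4, Klrd1 and Ncr1 were not well above background on any array.

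Markers of resident cells also differed between the arrays, and the genes named here were chosen after their values were seen. At day 7, 6 of 8 measured neuron markers were below sham (median -0.72), with the glycine transporter Slc6a5 at -5.26 and the neurofilament gene Nefh at -2.30. Of all 6261 measured genes 2924 were below sham. Of 7 oligodendrocyte markers 6 were below 0 (median -0.24). The 3 measured choroid plexus markers had a median of 1.72, with Sostdc1 at 1.86, Folr1 at 1.72 and Ttr at -0.10. The 6 measured astrocyte markers had medians against sham of 0.02 at day 1, with 3 below 0, and 0.52 at day 7, with 2 below 0. Among them S100b was at 3.19 at day 1 and 1.89 at day 7 against sham, beside 3.40 and 2.64 for Adar. At day 1 no other measured astrocyte marker was past 2-fold. The part of these differences in the interferon values was not tested. The array position on the slide differed for each group and cannot be told apart from it.

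The median pair of folds of the 6 interferon genes measured on all 3 arrays was -0.06 at day 1 and 0.85 at day 7 against sham. By distance to this pair, the nearest of 3447 other genes brighter than the median detected probe on at least 1 array were Pcdh7, Tial1, Lcat, Ddx52 and Bysl, with distances of 0.03, 0.05, 0.05, 0.06 and 0.09 log2 units over 3 arrays.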

How the data were processed

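RNA from the vestibular nuclei was hybridised to 3 arrays, 1 per group, on 1 slide. Per the file headers, Agilent Feature Extraction 10.7.3.1 quantified the spots, and the array design is of build rn4. The deposited scanner files hold, per spot, a processed intensity after background subtraction, its error estimate, raw intensities, and other columns with flags, and they were not scaled between arrays. The authors' series table of 34687 probes held this processed intensity (99.4% of its values matched with a tolerance of 0.1 percent).

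From these, log2 processed intensity minus the array's 75th percentile (5692 in sham, 5242 at day 1 and 5676 at day 7) was computed per probe without spots marked as outliers. Probes were named by RefSeq accession in a table of assembly GRCr8 (10768 of 41012 probes), because the files used here hold no gene name column. Where a gene had several probes, that with the highest mean over the 3 arrays stood for it. Genes were counted past 2-fold, and a gene detected on 1 array only has a bound ("at least"). The bound takes the other array's lowest signal well above background, or the gene's own reading there if higher. In the second case it is given as a ratio without "at least". Named genes are all 9 with every probe, up to 3 genes per role list and direction past 2-fold by size, up to 2 with a bound, and the 5 nearest in pattern. Other ligands, IRF factors, cell type markers and genes named were chosen after their values were seen. The genes, lists and rules were chosen with earlier results of these data known. Promoters came from RefSeq (GRCr8). Alternatives covered scaling, background correction (normexp with offset 50, then quantile normalization, on median signals because the files used here hold no mean signal), filters and probe choice. R 4.3.3, limma 3.58.1 and Python 3.11.15 were used, and the calculation was tested on simulated data. Arrays number 3, which limits the precision. Some results are not reported here.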

Additional observations from a re-analysis of the deposited data

Results flagged for a closer look

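Some genes lay on opposite sides of sham at the 2 times after surgery. The log2 folds against sham were -1.86 at day 1 and 0.043 at day 7 for Ifit2, -0.21 and 0.84 for Irf1, and -0.63 and 0.86 for Irf9. Among the other listed interferon genes past 2-fold on either day, Oasl2 was at -0.82 at day 1 and 1.30 at day 7. Psmb9 was at -1.04 at day 1 (-0.79 under normexp) and 0.12 at day 7. The 2 times share the sham array, each has 1 array, and the difference between them was not tested. The day 7 value of Ifit2 and the day 1 value of Irf1 are within the scanner error of 0.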

How the results depend on the processing

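No paired analysis was possible because each group had 1 array, no array could be left out for the same reason, and a slide block was not run since all arrays lay on 1 slide. Of the genes recomputed, none past 2-fold changed sign under the alternatives that gave it a value (10 or 11). Several of these cannot change a gene whose single measured spot is neither an outlier nor saturated, so not all of them tested the sign. For Adar at day 1 against sham, keeping dim probes, outlier spots or saturated probes, or averaging probes, left 3.40 unchanged. With only probes brighter than the median detected one, 2 or 3 of the 9 genes were left. At day 1 against sham none was lower (3.49% of all genes were) and the median was 1.74. At day 7 against sham the median was 2.64. At day 7 against day 1 none was 2-fold higher (4.56% of all genes were) and the median was 0.10. Ifngr1 and Adar passed that filter against sham only through the arrays where they were high. With dim probes kept, 5 of the 9 were higher at day 7 against day 1 (6.04% of all genes). Among all listed interferon genes, the members included, 1 of 49 was higher and 3 were lower at day 1 against sham by the main scaling (8.26% and 4.37% of all genes). At day 7 against sham 12 of 52 were higher and 1 was lower (11.1% and 5.73%). At day 7 against day 1, 6 of 50 were higher and 1 was lower (6.56% and 5.32%). At day 1 against sham 2 of 70 were higher with dim probes kept (7.64% of all genes) and 2 of 49 with the mean of a gene's probes (8.17%). Among brighter probes 0 of 21 were lower (3.49% of all genes). At day 7 against sham 5 of 52 were higher under normexp (5.96% of all genes) and 5 of 23 among brighter probes (5.77%). With dim probes kept 2 of 70 were lower (5.27% of all genes), and among brighter ones 0 of 23 were (5.68%). At day 7 against day 1, 3 of 50 were higher under normexp (4.77% of all genes), 11 of 50 without scaling (8.45%) and 1 of 22 among brighter probes (4.56%). Normexp here changes the signal, the background correction and the normalization together. The cause was not tested. Mx1 at day 1 against sham turned to -0.03 under cyclic loess, and Rsad2 to -0.06 under normexp. The median of the listed genes at day 1 against sham (0.05) ranged between -0.10 (normexp) and 0.17 (dim probes kept).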

Other observations

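Several partners of the interferon genes had more than 1 measured probe. They were chosen after their values were seen. Stat3, a signal transducer, had a brighter probe at -0.37 and a dimmer one at 0.75 on the log2 scale at day 7 against sham. For Usp18, a protease that removes ISG15 and dampens type I signalling, the brighter probe gave 0.52 at day 1 and 0.68 at day 7 against sham, and the dimmer one 2.44 at day 1 and 1.14 at day 7. The probes of Bst2 gave 0.96 each at day 7 against day 1, and those of C1qa 1.39 and 1.47.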
